A study of Solanum lycopersicum with 18 samples.

Results

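Peaks of m6A that lie inside coding exons were examined in pericarp of tomato fruit. A coding-exon peak, as its labels in the lists have it, overlaps exactly 1 gene, begins and ends in an exon or an intron, and has its centre in an exon. No measured value was used to choose them. They number 4538 of the 89159 peaks in the 9 deposited lists (72764 of the 89159 overlap 1 gene), and they fall in 970 of the 11176 genes with a peak. The most frequent class, used for comparison, is the 51086 stop-codon peaks of 1 gene, which begin in an exon or an intron and end in the 3′ UTR or beyond the gene.

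The 3 groups were wild-type fruit of the cultivar Ailsa Craig at 39 days post-anthesis (WT 39 DPA, mature green), wild-type fruit at 42 DPA (breaker, the onset of ripening) and fruit of Colorless non-ripening (Cnr) at 42 DPA. Cnr is an epimutant in the Ailsa Craig background whose fruit stay colourless and do not ripen. All plants were grown in a standard greenhouse. Each group had 3 replicates of RNA pooled from at least 30 fruits, and each replicate had an immunoprecipitated (IP) and an input library. Pericarp is a mixed tissue, so a change in all cells and a change in the mixture of cells cannot be told apart. The labelled tissue was not checked against marker genes, since the lists hold peaks and no expression table.

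m6A is a methyl group on adenosine within the RNA chain, and it is common in mRNA of plants, animals and fungi. Writers, a methyltransferase complex, place it during transcription, erasers of the AlkB family can remove it, and reader proteins that bind it can alter the stability, translation or processing of the transcript. In plants and animals most of it lies around the stop codon and in the 3′ UTR. m6A within the coding sequence is sparser, and in some transcripts it has been tied to how fast the ribosome moves.

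The libraries differed in a way that touches the results below. The lists hold between 9246 and 10407 peaks, and no read totals. The background floor that the peak caller used lay between 44.6 and 51.1 fragments. Cnr replicates 1 and 3 stood apart from Cnr replicate 2. Their stop-codon peaks had a median enrichment of 8.53 and 9.12, and the other 7 libraries had 6.03 to 7.14. Fold enrichment is the IP fragments at the summit over the background, and the highest summit stands for a peak with several.

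The label "coding exon" was checked against the strand of the genes, which the lists do not give for 384 of the 4538 peaks. The 4231 peaks under 5-fold were split evenly, with 1990 on the forward and 1921 on the reverse strand (320 not given). The 307 peaks of 5-fold or more were not, with 183 forward and 60 reverse (64 not given). This imbalance lay in the peaks that end in the last intron, of which 139 were forward and 13 reverse at 5-fold or more. The strong peaks that end elsewhere were 44 and 47. The centre labels of other classes also went with the strand. Peaks that begin in the last exon and end in the 3′ UTR were labelled as centred in the exon in 9710 cases on the forward strand and in 0 on the reverse strand. The same kind of peak was labelled as centred in the 3′ UTR in 0 cases on the forward and 10325 on the reverse strand. Likewise, peaks from an inner exon through the 3′ UTR to the last intron numbered 0 forward and 142 reverse. The labels went with the strand at the gene start too. Peaks from the 5′ UTR to an inner exon were centred in the 5′ UTR in 180 forward and 0 reverse cases. They were centred in an inner exon in 0 forward and 128 reverse cases. The 198 strong peaks that end in the last intron are therefore not shown to be centred in coding sequence, and the main results are given below also without the peaks of this kind. Other coding-exon peaks were also uneven by strand. Those from an inner intron to an inner exon were 205 forward and 112 reverse, and those from an inner exon to an inner intron 159 and 205. Leaving out the peaks that end in the last intron does not remove these differences. The labels give no distance to the stop codon.

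The coding-exon peaks were weak and spread along the genes. Their median enrichment in a library lay between 1.88 and 2.48, and 4231 of the 4538 peaks (93.2%) were under 5-fold. Of the 4538 centres, 874 were in exon 1, 635 in exon 2, 454 in exon 3, 1609 in exon 4 or later but not the last, and 966 in the last exon. The whole peak stayed within 1 exon in 2588 cases (57.0%). For the peaks with gene coordinates in the lists, the median summit of those under 5-fold lay at 39.4% of the gene's length, introns included (n = 3638), and that of the stronger ones at 79.7% (n = 194). At 5-fold or more, 64.5% of the peaks ended in the last intron, and under 5-fold 8.58%. Genes with a strong coding-exon peak also seldom had a separate peak at the stop codon or in the 3′ UTR of the same library. They had one beside 19.2% of the strong peaks and beside 61.7% of the weak ones. Of the strong peaks that ended elsewhere than in the last intron, 33.0% lay in a gene with such a peak.

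**Figure D1:**
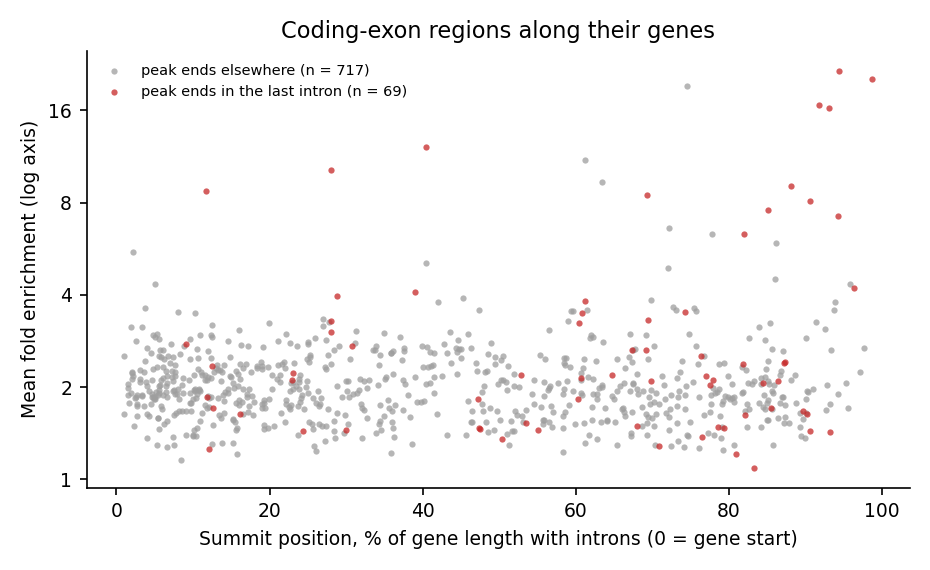
Mean fold enrichment over the libraries with a peak (vertical log axis) of the 786 coding-exon regions whose gene coordinates are in the lists, against the position of the summit in percent of gene length with introns (horizontal axis, 0 = gene start). Red points are regions whose peak ends in the last intron and grey points are the others: the highest points are mostly red and lie late in the gene, while grey points fill the low band along the whole gene.

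The peaks in coding exons also differed from stop-codon peaks in fragments, background and width, without matching for enrichment. The median number of IP fragments at their summits was 228 to 281 per library, and that of stop-codon summits 501 to 647. Their background was 1.81 to 2.26 times the floor, and that of stop-codon peaks 1.15 to 1.27 times. The background of 11.7% to 24.3% of them was on the floor, against 39.4% to 44.1% of the stop-codon peaks. They were also narrower, with a median width of 255 to 277 bp against 339 to 354 bp. These are medians over peaks of 1 library, set side by side without a test. The same traits changed with enrichment. Over all libraries, coding-exon peaks of 5- to 10-fold had medians of 396 IP fragments, 1 floor and 339 bp, with 51.1% on the floor. Of these, 61.7% ended in the last intron. Those of 1.5- to 2-fold had 229 fragments, 2.62 floors and 235 bp, with 5.37% on the floor. Within genes that had both kinds of peak in a library, the coding-exon peak was the higher one in 1.47% to 6.52% of the genes. In wild type the median of their log2 difference, coding exon minus stop codon, ranged from −1.86 to −1.77 over the 6 libraries. In Cnr it was −2.31 in replicate 1 (77 genes), −1.97 in replicate 2 (205 genes) and −2.54 in replicate 3 (46 genes).

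The number of coding-exon peaks was compared first, since the stages and the epimutant differ in ripening. WT 39 DPA had 719, 564 and 632 coding-exon peaks in replicates 1 to 3. WT 42 DPA had 568, 578 and 520. Cnr had 234, 554 and 169. Cnr replicate 2 thus lay within the range of WT 42 DPA, and Cnr replicates 1 and 3 lay under all 6 wild-type libraries. The mean was 638 ± 77.7 at WT 39 DPA, 555 ± 31.0 at WT 42 DPA and 319 ± 206 in Cnr (SD, n = 3). The exact two-sided permutation test gave p = 0.3 for the stages and p = 0.2 for Cnr against WT 42 DPA. With 3 against 3 libraries it gives no p under 0.1. Between the same-numbered replicates of Cnr and WT 42 DPA, which deviated together across regions, Cnr was lower in all 3 pairs, and the exact sign-flip permutation test gave p = 0.25, the smallest that 3 pairs allow. Without Cnr replicate 2 the difference between Cnr and WT 42 DPA went from −236 to −354 peaks. As a share of the peaks of 1 gene, coding-exon peaks made up 7.11%, 7.09% and 6.86% at WT 42 DPA and 2.91%, 6.72% and 2.14% in Cnr. The shares did not overlap, and their difference of −3.10 percentage points had an exact permutation p of 0.1 (Benjamini-Hochberg adjusted over 18 such tests, 0.36). Without the peaks that end in the last intron it was −2.96 points (exact permutation p = 0.1). Both comparisons use the same 3 WT 42 DPA libraries.

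The lower number in Cnr lay in the weak peaks. Under 5-fold, there were 688, 532 and 598 coding-exon peaks at WT 39 DPA, 539, 544 and 494 at WT 42 DPA, and 190, 518 and 128 in Cnr. At 5-fold or more there were 31, 32 and 34 at WT 39 DPA, 29, 34 and 26 at WT 42 DPA, and 44, 36 and 41 in Cnr. The strong peaks were thus more numerous in every Cnr library than in any wild-type library. The mean was 40.3 ± 4.04 in Cnr and 29.7 ± 4.04 at WT 42 DPA (SD, n = 3), with an exact permutation p of 0.1 (adjusted over 12 tests chosen after the data were seen, 0.533). Of these strong peaks, those ending in the last intron numbered 20, 20 and 18 at WT 42 DPA and 27, 22 and 28 in Cnr. Those ending elsewhere numbered 9, 14 and 8 at WT 42 DPA and 17, 14 and 13 in Cnr, where the groups overlapped (exact permutation p = 0.3). The weak peaks differed by −247 (exact permutation p = 0.2), and without the peaks ending in the last intron by −231 (p = 0.2, exact). The transcript-start peaks, another sparse class, numbered 175, 224 and 149 at WT 42 DPA and 62, 166 and 52 in Cnr. Cnr replicates 1 and 3 were thus the lowest libraries in that class as well. Other sparse classes did not drop. Intron-centred peaks numbered 377, 395 and 350 at WT 42 DPA and 398, 429 and 386 in Cnr. Peaks outside every gene numbered 455, 452 and 409 at WT 42 DPA and 567, 531 and 539 in Cnr.

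**Figure D2:**
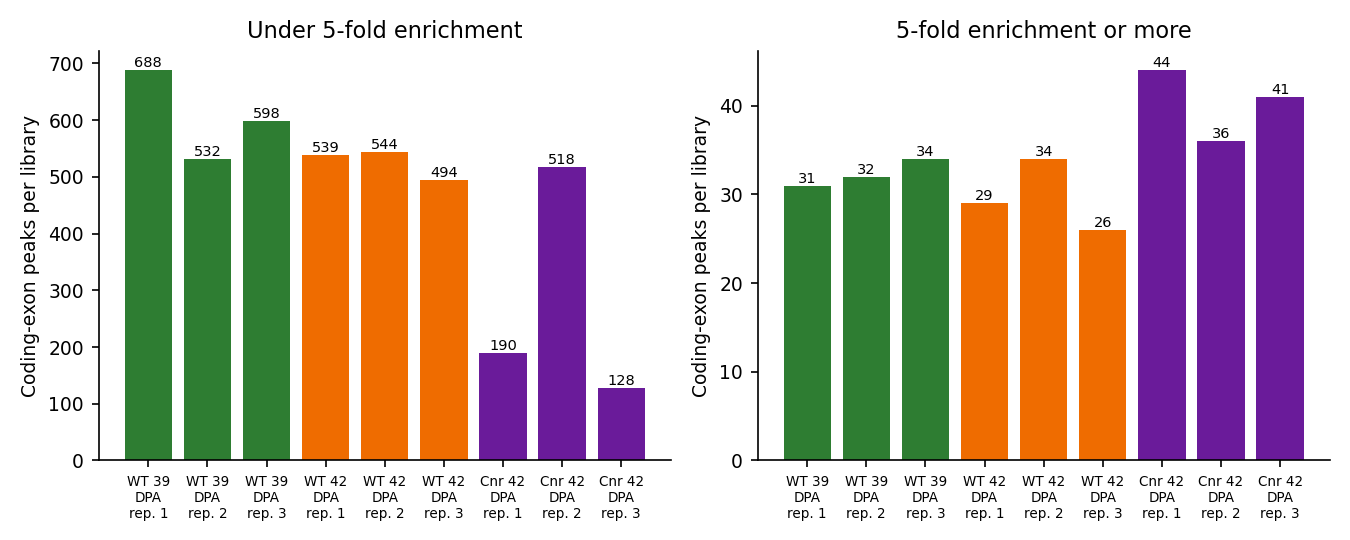
Number of coding-exon peaks (vertical axes, from 0) in each of the 9 libraries, on the left those under 5-fold enrichment and on the right those of 5-fold or more. Bars are single libraries, with the number above each: the weak peaks drop to 190 and 128 in Cnr replicates 1 and 3 but not in replicate 2 (518), and the strong peaks reach 36 to 44 in the 3 Cnr libraries.

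The median enrichment of the coding-exon peaks did not separate the groups. It was 2.12, 2.08 and 2.23 at WT 39 DPA, 2.06, 2.22 and 1.88 at WT 42 DPA, and 2.19, 2.11 and 2.48 in Cnr (exact permutation p = 0.4 and 0.3, each against WT 42 DPA). Measured against the stop-codon peaks of the same library, the gap in median log2 enrichment was −1.64 ± 0.036 at WT 39 DPA, −1.68 ± 0.061 at WT 42 DPA and −1.87 ± 0.0997 in Cnr (SD, n = 3). The Cnr gaps did not overlap with those of WT 42 DPA (exact permutation p = 0.1, adjusted 0.36). When every library was reduced to the same number of peaks, the sign of this Cnr difference turned from −0.19 to 0.19. Coding-exon peaks in a gene with a stop-codon or 3′ UTR peak made up 61.3%, 59.7% and 60% at WT 42 DPA and 50.9%, 57.2% and 42.6% in Cnr. The 2 groups did not overlap (exact permutation p = 0.1, adjusted 0.36).

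To ask which sites and genes kept their peaks, peaks of the 9 lists that share at least 1 bp were merged into 12119 regions. A region was called a coding-exon region when most of the libraries with a peak there held a coding-exon peak, which gave 928 regions in 837 genes. Coding-exon regions were seldom present throughout, as 119 of them (12.8%) had a peak in all 9 libraries and 182 had a peak in 1 library. Of all regions 64.7%, and of stop-codon regions 79.7%, had a peak in all 9. Most genes (761 of 837) had 1 coding-exon region. There were 64 genes with 2, 9 with 3 and 3 with 4, namely Solyc06g083870 (structural maintenance of chromosomes 1, a cohesin subunit), Solyc07g043320 and SlDML2 (Solyc10g083630), a DNA demethylase. A coding-exon region in every library of a group was found in 445 genes at WT 39 DPA, in 367 at WT 42 DPA and in 144 in Cnr. The stages shared 321 of these genes, which are 72.1% of the WT 39 DPA genes and 87.5% of the WT 42 DPA genes. WT 42 DPA and Cnr shared 120, which are 32.7% of the WT 42 DPA genes and 83.3% of the Cnr genes.

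Between the stages, few coding-exon regions appeared or went missing outright. Of the 480 regions in every WT 39 DPA library, 39 (8.13%) had no peak in any WT 42 DPA library, where 3.6% of all regions did. Of the 394 regions in every WT 42 DPA library, 8 (2.03%) had none at WT 39 DPA, where 1.49% of all regions did. Leaving out WT 39 DPA replicate 2 raised the first number to 75, and leaving out WT 39 DPA replicate 1, WT 42 DPA replicate 2 or WT 42 DPA replicate 3 raised the second to 13, 14 or 19. With a library left out the rule asks for fewer libraries, so these numbers could only stay or rise. Shares over all regions are not given with a library left out. A missing peak means that the region did not pass the peak caller in that library. It does not show that m6A was absent there.

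Regions present at WT 39 DPA and absent at WT 42 DPA lay in genes of several kinds. Of these 39 regions, 6 had a peak in all 3 Cnr libraries, 3 in 1 and 30 in none. The same split over all regions is not given. The 6 regions named here are those with the highest enrichment at WT 39 DPA, so they do not stand for the 39. Solyc09g009090 encodes a CTR1-like protein kinase, of the family that represses ethylene signalling. Its region in exon 16 (chromosome 9, 2441927 to 2442206, SL3.0) had enrichments of 4.20, 3.61 and 3.67 at WT 39 DPA, no peak in the 3 WT 42 DPA libraries, and 4.71, 4.20 and 4.83 in Cnr. The Cnr libraries thus resembled the green stage at this site. This peak ends in the last intron of a forward-strand gene. Solyc03g093210, annotated as DIS3-like exonuclease 2, an enzyme that degrades RNA, had the same pattern in exon 8 (chromosome 3, 55833766 to 55834036), with 2.84, 3.49 and 3.57 at WT 39 DPA, none at WT 42 DPA, and 4.02, 3.16 and 4.30 in Cnr. So did exon 13 of Solyc06g074960 (chromosome 6, 46607241 to 46607478), a gene annotated with ATP binding, with 2.79, 3.39 and 3.29 at WT 39 DPA and 4.20, 3.33 and 4.49 in Cnr. Others were absent in Cnr as well. The last exon of Solyc06g072700, annotated with metal ion transport, had 3.48, 3.53 and 3.65 at WT 39 DPA and no peak in the other 6 libraries. Exon 2 of Solyc02g085630, a homeobox-leucine zipper gene, had 3.04, 2.40 and 2.90 at WT 39 DPA and none in the other 6. Solyc11g012680, also annotated with metal ion transport, had a last-exon region with 2.88, 2.43 and 3.14 at WT 39 DPA and 2.42 in Cnr replicate 2.

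In the opposite direction the regions were fewer. The highest lay in the last exon of Solyc10g018140 (chromosome 10, 6736050 to 6736415), annotated as a 3-beta-hydroxy-delta5-steroid dehydrogenase, an enzyme of steroid synthesis. It had 4.57, 5.31 and 3.73 at WT 42 DPA and no peak at WT 39 DPA or in Cnr. Exon 2 of the sulfotransferase gene Solyc05g012950 had 3.53, 3.97 and 3.66 at WT 42 DPA, none at WT 39 DPA, and 3.35 in Cnr replicate 3. The last exon of the heat-shock protein gene Solyc08g078695 had 2.44, 2.46 and 2.01 at WT 42 DPA alone. Exon 2 of Solyc01g091270, described as myeloid leukemia factor 1, had 1.99, 2.05 and 1.79 at WT 42 DPA alone. The sites in Solyc05g014280 (last exon) and Solyc07g008170 (exon 2) were likewise seen at WT 42 DPA alone, with 1.83 to 2.46 and 1.83 to 2.11. The last 4 thus lay near the median of all coding-exon peaks.

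In Cnr the coding-exon regions of WT 42 DPA were often missing, and mostly in the same 2 libraries. Of the 394 regions in every WT 42 DPA library, 123 (31.2%) had a peak in all 3 Cnr libraries, 159 (40.4%) in Cnr replicate 2 alone, 50 in another combination and 62 (15.7%) in none, where 3.5% of all regions had none. Without Cnr replicate 2 the number with none was 221. Leaving out a library relaxes the rule, so this number could only stay or rise. Without the regions that end in the last intron it was 58 of 343. For these altered settings the share over all regions is not given. Of the 147 regions in every Cnr library, 15 (10.2%) had no peak at WT 42 DPA, where 7.31% of all regions did. The regions that stayed were the stronger ones at WT 42 DPA, with a median enrichment of 3.17, against 1.96 for those with no Cnr peak and 1.94 for those kept in Cnr replicate 2 alone. Of the 341 regions present in all 6 wild-type libraries, 119 were in 3 Cnr libraries, 48 in 2, 134 in 1 and 40 in none. For all 134, the Cnr library with the peak was replicate 2.

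The stop-codon regions of the same genes mostly stayed. Of the 62 regions without a Cnr peak, 33 lay in a gene with a stop-codon region, and for 30 of these 33 that region had a peak in all 6 WT 42 DPA and Cnr libraries. Its log2 enrichment was higher in Cnr for 26 of the 30 (median 0.34). For the regions kept in Cnr replicate 2 alone it was higher in 68 of 78 (median 0.40), and for those kept in all Cnr libraries in 35 of 36 (median 0.53). Where the background at the stop codon was above the floor and so gives the input level, its median log2 change from WT 42 DPA to Cnr was −0.44 for the lost regions (n = 16), 0.02 for those kept in all Cnr libraries (n = 26) and 0.02 for those in Cnr replicate 2 alone (n = 59). The part of lower input in the losses was not tested.

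Since weak peaks are the first to be missed, regions were compared at matched enrichment, in bins of the mean enrichment at WT 39 DPA, a group that the comparison of Cnr with WT 42 DPA does not use. Of the 227 coding-exon regions of 2- to 3-fold, 84.6%, 87.2% and 76.2% were found in WT 42 DPA replicates 1 to 3, and 33.9%, 77.5% and 17.6% in Cnr replicates 1 to 3. Of the 380 stop-codon regions of 2- to 3-fold, 80.3%, 84.5% and 68.2% were found at WT 42 DPA and 81.3%, 81.1% and 77.9% in Cnr. In this bin Cnr replicates 1 and 3 thus missed most coding-exon regions but few stop-codon regions. The difference in detection, coding exon minus stop codon, was 5.04 ± 2.72 percentage points at WT 42 DPA and −37.1 ± 29.8 in Cnr (SD, n = 3). They differed by −42.1 points, with an exact permutation p of 0.1, in a comparison chosen after the data were seen. It ranged from −58.9 to −30.5 points when each library was left out in turn. Below 2-fold, coding-exon regions (n = 141) were found at 8.51%, 66.0% and 3.55% in the 3 Cnr libraries, and stop-codon regions (n = 50) at 64%, 86% and 56%. That bin was not matched in background, with medians at WT 39 DPA of 3.09 floors for coding-exon and 6.37 for stop-codon regions. In the 2- to 3-fold bin these were 1.77 and 1.65 floors. Between 3- and 5-fold (n = 82) coding-exon regions were found at 78.0%, 90.2% and 72.0% in the 3 Cnr libraries. At 5-fold or more all 30 were found in every library.

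**Figure D3:**
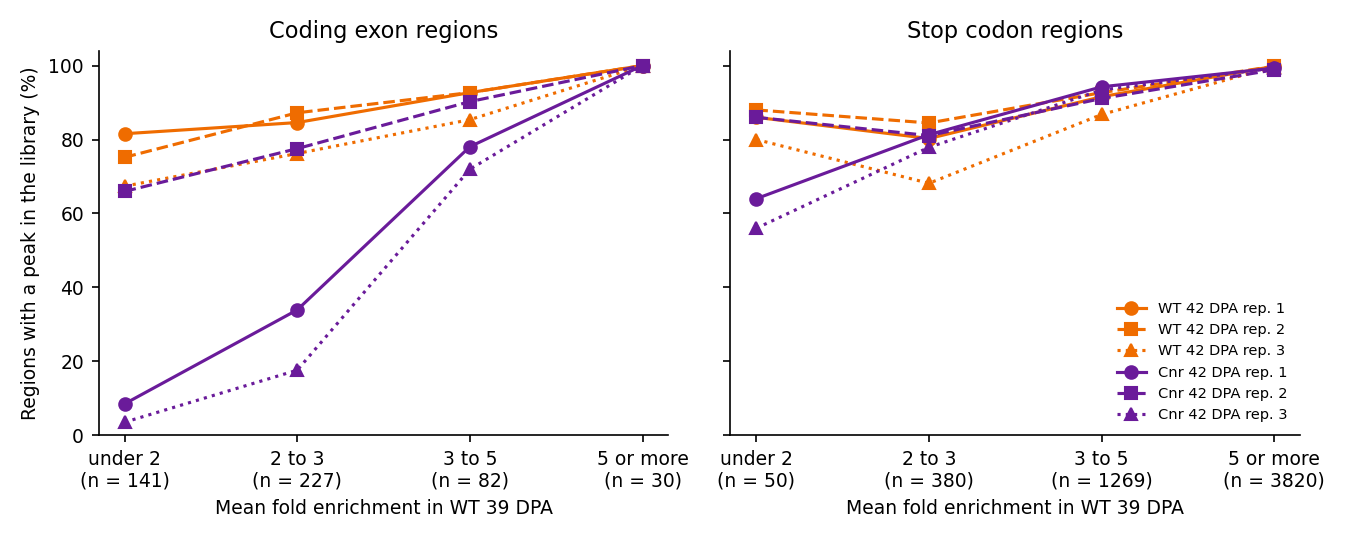
Share of regions with a peak in each WT 42 DPA and Cnr library (vertical axis, percent), by mean fold enrichment at WT 39 DPA (horizontal axis, with the number of regions), for coding-exon regions on the left and stop-codon regions on the right. Lines are single libraries: the lines of Cnr replicates 1 and 3 fall to 8.51% and 3.55% for the weakest coding-exon regions, while for the weakest stop-codon regions they are at 64% and 56% and from 2-fold on all 3 Cnr lines stay at 77.9% or more. The weakest bins differ in median background at WT 39 DPA, with 3.09 floors for coding-exon and 6.37 for stop-codon regions.

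The log2 enrichment of regions seen in all 6 libraries compared was compared by limma. Calls needed a change of at least 1.5-fold with p under 0.05, the thresholds of the study. Every region called also had a Benjamini-Hochberg adjusted p under 0.05 over all regions tested, but this follows from the fold threshold. The standard error rests on a spread pooled over all regions. It is the same for each region, 0.139 between the stages and 0.173 for Cnr on the log2 scale. Within a comparison p therefore depends on the log2 difference alone, and differences short of 1.5-fold already passed it. Between the stages Solyc04g009510 had 0.549 (limma, adjusted p = 0.00141). In Cnr Solyc01g068590 had 0.542 (limma, adjusted p = 0.00557). Neither was called in that comparison. The calls were thus set by the fold threshold, and p gave no further support to them.

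Between the stages the coding-exon regions hardly changed. Of the 341 tested, 6 (1.76%) were called higher at WT 39 DPA, where 3% of all regions were, and 0 were called lower, where 1.55% were. Of the 292 that do not end in the last intron, 5 were called higher and 0 lower. With no minimum fold change, limma at an adjusted p under 0.05 gave 26 higher and 3 lower. With each library centred on its median the split at the main thresholds was 2 higher and 0 lower. The number higher was 3 without WT 39 DPA replicate 3 and 13 without WT 42 DPA replicate 2, and without WT 39 DPA replicate 2 there was 1 lower. For these altered settings the shares over all regions are not given. The median log2 change, WT 39 DPA minus WT 42 DPA, was 0.09 for coding-exon regions and 0.05 for all regions.

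The largest of these changes was in the last exon of Solyc08g066060 (chromosome 8, 54571280 to 54571658). Its enrichment was 3.56, 3.30 and 3.57 at WT 39 DPA and 1.74, 2.53 and 1.66 at WT 42 DPA, with no overlap. The log2 difference was 0.84 (pooled SE 0.139, limma with Benjamini-Hochberg adjusted p = 1.25e-07), and 1 Cnr library had a peak. Exon 4 of Solyc09g072570 followed, with 2.98, 2.74 and 3.10 against 1.68, 1.94 and 1.80. Exon 3 of Solyc05g008780 had 2.94, 2.64 and 2.67 against 1.67, 1.79 and 1.83. Exon 3 of Solyc02g069350 and exon 6 of Solyc03g045050 were higher by 0.61 and 0.59. Both of these fell below the fold threshold when libraries were centred on their medians (0.55 and 0.53), as did Solyc05g008780 (0.58). Solyc03g045050 and Solyc05g008780 also did so with the mean of the summits (0.27 and 0.28) in place of the highest. The sixth, Solyc04g079920 (0.59, named after its values were seen), overlapped between the stages, since WT 42 DPA replicate 2 at 4.80 was the highest of its 6 libraries.

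In Cnr the coding-exon regions that could be tested did not share the rise of the other regions. Of the 123 tested, 10 (8.13%) were called higher in Cnr than at WT 42 DPA, where 25.2% of all regions were, and 3 (2.44%) were called lower, where 1.91% were. Of the 92 that do not end in the last intron, 8 were called higher and 3 lower, and of the 31 that do, 2 higher and 0 lower. The median log2 change, Cnr minus WT 42 DPA, was −0.06 for coding-exon regions and 0.36 both for stop-codon regions and for all regions. The −0.06 joins a median of −0.18 for the 92 regions that do not end in the last intron and of 0.24 for the 31 that do. It was positive for 43.1% of the coding-exon regions and for 83.4% of all regions. The median turned to 0.05 without WT 42 DPA replicate 2 and to 0.22 when peaks under 2-fold were dropped. With each library centred on its median, which takes out the rise common to all regions, the split was 2 higher and 45 lower. Without Cnr replicate 2, and without this centring, 18 were higher and 19 lower. The number lower was 1 without WT 42 DPA replicate 2 and 9 without WT 42 DPA replicate 3. Shares over all regions are not given for the centred and leave-one-out settings. These splits are therefore not shown to be particular to coding-exon regions. Where the background was above the floor in all 6 libraries, 1 of 90 coding-exon regions was called higher and 3 lower, and of all 3940 such regions 679 were called higher and 24 lower. A region had to be found in all Cnr libraries to be tested, so the 271 regions of WT 42 DPA that were missed in at least 1 Cnr library are not in these numbers.

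**Figure D4:**
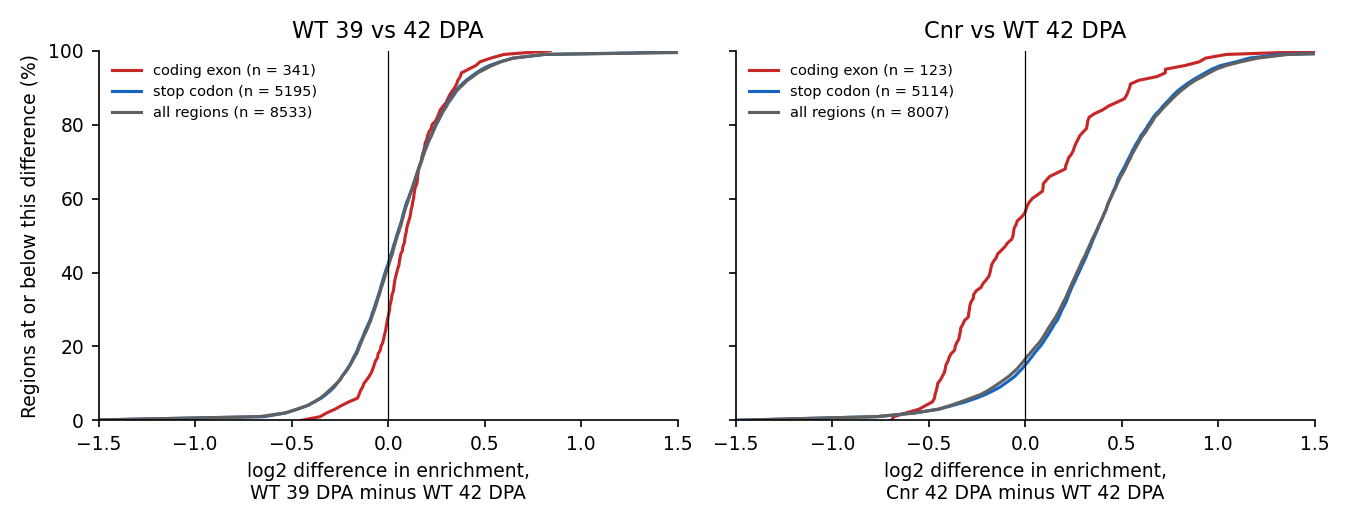
Cumulative share of regions (vertical axis, percent) at or below a log2 difference in enrichment (horizontal axis), for WT 39 DPA minus WT 42 DPA on the left and Cnr minus WT 42 DPA on the right, in coding-exon, stop-codon and all regions. The 3 lines lie together between the stages (medians 0.09, 0.04 and 0.05), and in Cnr the coding-exon line lies to the left of the others (medians −0.06, 0.36 and 0.36).

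The change in Cnr went with the strength of the site. Among the 119 tested regions that were also in every WT 39 DPA library, those under 3-fold at WT 39 DPA had a median log2 change in Cnr of −0.29, positive for 7 of 34. Those of 3- to 5-fold had −0.14, positive for 18 of 55. Those of 5-fold or more had 0.30, positive for 27 of 30. Stop-codon regions in the same bins had 0.25 (n = 230), 0.35 (n = 1015) and 0.37 (n = 3780). Weak coding-exon regions thus lay lower in Cnr than stop-codon regions of like enrichment, and the strong ones moved as stop-codon regions did. With each of the 6 libraries left out in turn, the lowest bin ranged from −0.42 to −0.16 and the highest from 0.18 to 0.48. The middle bin turned to 0.03 without WT 42 DPA replicate 2. Of the 30 strong regions, the 11 that do not end in the last intron had a median of 0.48, positive for 10, and the 19 that do had 0.26, positive for 17. The lower values of the weak coding-exon regions lay in 2 of the Cnr libraries. Under 3-fold, their median enrichment was 2.52, 2.78 and 2.11 in WT 42 DPA replicates 1 to 3. In Cnr replicates 1 to 3 it was 1.87, 2.52 and 1.70, so Cnr replicate 2 lay within the range of WT 42 DPA. These bins were chosen after the data were seen and carry no test.

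The coding-exon region with the largest rise in Cnr was in exon 3 of Solyc05g009130 (chromosome 5, 3252311 to 3252652), annotated with acetylglucosaminyltransferase activity, which adds N-acetylglucosamine to glycans. Its enrichment was 2.45, 2.63 and 2.72 at WT 42 DPA and 8.47, 6.27 and 9.18 in Cnr, with a single WT 39 DPA peak at 2.45. The groups were far apart, with a log2 difference of 1.60 (pooled SE 0.173, limma with Benjamini-Hochberg adjusted p = 6.885e-18). Exon 11 of Solyc04g009510, annotated with nucleic acid binding, had 6.30, 7.0 and 5.26 at WT 42 DPA and 13.3, 11.7 and 13.7 in Cnr (log2 difference 1.06). At WT 39 DPA it had 8.05, 9.36 and 9.64, between the other groups. Solyc11g013750, of the TIR-NBS-LRR class of disease resistance proteins, had 2.49, 2.72 and 2.35 against 5.06, 4.40 and 4.65 in exon 4 (0.90). Exon 3 of Solyc02g069350, which was also higher at WT 39 DPA, had 2.57, 2.80 and 2.31 against 5.30, 4.62 and 5.0 (0.96). Its peak ends in the last intron of a forward-strand gene. Exon 29 of Solyc11g044340 had 5.19, 5.14 and 5.03 against 10.8, 7.56 and 10.8 (0.90), and exon 2 of Solyc06g005435 had 3.35, 4.14 and 3.14 against 6.5, 5.35 and 6.84 (0.82). At these 6 sites the mean background was on the floor in both groups (1.02 floors for Solyc06g005435 in Cnr), so the enrichment there does not reflect the input. With libraries centred on their medians, Solyc02g069350, Solyc11g013750, Solyc11g044340 and Solyc06g005435 were under the fold threshold (0.57, 0.51, 0.51 and 0.43). With the mean of its summits Solyc11g044340 was too (0.20).

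Regions called lower in Cnr numbered 3. Solyc12g098420 is annotated with the Arp2/3 complex, which nucleates branched actin filaments. Its exon 9 (chromosome 12, 66910466 to 66911463) had 3.0, 1.96 and 2.43 at WT 42 DPA and 1.42, 1.68 and 1.42 in Cnr. The log2 difference was −0.69 (pooled SE 0.173, limma with Benjamini-Hochberg adjusted p = 0.000374). Without WT 42 DPA replicate 1 the difference was −0.54, under the fold threshold. The same gene held a strong region in exon 13 (chromosome 12, 66913290 to 66913658), with 13.3, 12.4 and 11.1 at WT 42 DPA and 18, 10.4 and 19.1 in Cnr. The sites of this transcript thus differed in opposite directions in Cnr replicates 1 and 3, and the difference at the strong site did not pass the test (0.32, adjusted p = 0.107 by limma with Benjamini-Hochberg). The other 2, named after their values were seen, overlapped between the groups. Exon 6 of Solyc07g053610 had 3.44, 4.44 and 2.43 against 2.09, 2.72 and 1.71 (−0.65), and exon 2 of Solyc09g098510 had 3.75, 4.36 and 2.79 against 2.07, 2.89 and 1.80 (−0.69).

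Among the 15 regions found in every Cnr and no WT 42 DPA library, the highest was in exon 5 of Solyc06g068570 (chromosome 6, 42621681 to 42622070), an AP2-like ethylene-responsive transcription factor gene, whose peak ends in the last intron of a forward-strand gene. It had 7.67, 5.92 and 7.96 in Cnr, and 2.51 and 2.68 in WT 39 DPA replicates 2 and 3. Exon 5 of Solyc04g074850, described as ripening regulated protein DDTFR18 and annotated as a drug transmembrane transporter, had 2.29, 2.33 and 2.45 at WT 39 DPA and 4.60, 4.04 and 3.81 in Cnr. The last exon of Solyc10g005600 had 4.34, 3.96 and 3.81 in Cnr and no peak in any wild-type library. The CTR1-like kinase, the DIS3-like exonuclease and Solyc06g074960 described above complete the 6 highest.

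Among the 62 regions found in every WT 42 DPA and no Cnr library, the steroid dehydrogenase region of Solyc10g018140 was the highest. The other 5 of the highest 6 were present at both wild-type stages. Exon 2 of Solyc04g015520 (chromosome 4, 5730852 to 5731259) had 4.16, 3.65 and 4.44 at WT 39 DPA and 4.23, 4.14 and 3.16 at WT 42 DPA. Its peak ends in the last intron of a forward-strand gene. Exon 18 of Solyc04g008680, a DBC1/CARP1-like gene annotated with regulation of transcription, had 3.11, 2.81 and 2.73 and then 2.66, 3.28 and 2.77. Exon 1 of Solyc11g012760, and the last exons of Solyc09g008830 and Solyc01g096470, ranged from 2.30 to 3.63 over the 6 wild-type libraries.

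The sites that held in every library give the other end of the range. The 119 regions in all 9 libraries had mean enrichments from 1.41 to 21.6 with a median of 3.23, and 32 of them were at 5-fold or more. Only 2 of the 34 regions with a mean of 5-fold or more were missing from a library. The highest was in exon 11 of Solyc03g061600 (chromosome 3, 32695640 to 32696196), with 17.2 to 28.9 over the 9 libraries. Exon 20 of Solyc09g055350, annotated with ATP binding and transport, had 13.7 to 30.8, and exon 23 of Solyc01g068590, a hydrolase gene, 15.0 to 25.6. Exons 12 of Solyc04g024590 and 17 of Solyc12g021170, both annotated as oxidoreductases, had 13.9 to 19.6 and 13.3 to 22.8. Of the 10 highest, 7 end in the last intron. The 3 that do not are Solyc01g068590, the exon 13 region of Solyc12g098420, and exon 9 of Solyc03g120010, which encodes subunit I of translation initiation factor eIF3, with 10.7 to 18.5. The remaining ones of the 10, in Solyc05g053835, Solyc01g091310 and Solyc08g077890, lay between 9.45 and 20.2. Solyc08g077890, a serine endopeptidase gene, was also among the 10 regions called higher in Cnr (log2 difference 0.65). At the low end, the last exon of Solyc06g053950 had 1.29 to 1.66 over the 9 libraries.

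**Figure D5:**
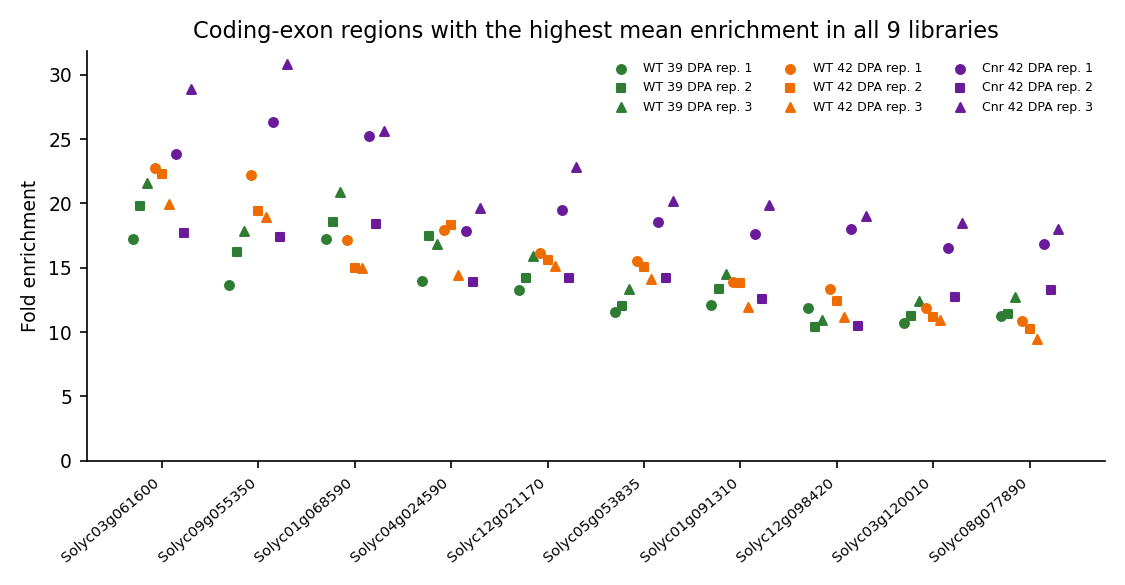
Fold enrichment (vertical axis, from 0) of the 10 coding-exon regions with the highest mean among those present in all 9 libraries, named by gene along the horizontal axis, with 1 point per library, coloured by group and shaped by replicate. The points lie between 9.45 and 30.8, and in each of the 10 regions the highest point is Cnr replicate 3.

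A gene could hold several lasting sites. Solyc09g010460, annotated with the eIF3 complex, had regions centred in exons 11 and 13. They had 2.31, 2.60 and 1.98, and 2.47, 2.72 and 2.14, at WT 42 DPA. In Cnr replicates 1 and 3 they had 1.56 and 1.37, and 1.73 and 1.40, while Cnr replicate 2 had 2.46 and 3.52. Both sites thus followed the split among the Cnr libraries. Solyc07g065490, annotated with DNA binding, had regions in exon 2 (2.39 to 4.56 over the 9 libraries) and exon 9 (4.25 to 8.34). Over all 119 lasting regions the median log2 enrichment was 1.69, 1.88 and 1.43 at WT 42 DPA and 1.42, 1.78 and 1.30 in Cnr. The groups overlapped (difference −0.16, exact permutation p = 0.4), and without Cnr replicate 2 the difference was −0.30. In each of the 3 same-numbered pairs Cnr was the lower. For the 5025 lasting stop-codon regions the difference was 0.38, with no overlap (exact permutation p = 0.1).

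Of 14 genes looked up because the study's text names them, 2 held coding-exon peaks. SlDML2, the DNA demethylase needed for ripening, had 20 coding-exon peaks among its 29 peaks, in 4 regions. Its other peaks lie outside coding exons as defined here and are not described, so these regions do not stand for the whole transcript. Its exon 7 region (chromosome 10, 63535960 to 63536217) had 2.55, 2.51 and 2.63 at WT 39 DPA, 2.34, 2.43 and 2.48 at WT 42 DPA, and no peak in Cnr. The exon 14 region (63534056 to 63534282) had 1.77, 1.75 and 1.68, then 1.70, 1.59 and 1.90, and likewise none in Cnr. The longer of 2 exon 4 regions (63539284 to 63539955) had 2.04, 1.88 and 2.26, then 1.79, 1.96 and 1.78, with 1.46 in Cnr replicate 2 alone, and the shorter one had a peak of 1.56 in WT 42 DPA replicate 3 alone. All 4 were thus absent from Cnr replicates 1 and 3. The mean background at the exon 7, exon 14 and longer exon 4 regions was 5.55, 7.87 and 6.2 floors at WT 39 DPA and 12.5, 15.7 and 14.2 floors at WT 42 DPA. At the only Cnr peak it was 3.82 floors. The background at these sites was thus higher at WT 42 DPA in each case, and no difference in enrichment between the stages was called. The part of the lower input in the missing Cnr peaks was not tested. Solyc02g089800, nuclear matrix constituent protein 1-like, had 18 coding-exon peaks among its 27 peaks of 1 gene. Its exon 6 region had 3.14, 2.90 and 2.86 at WT 39 DPA, 2.55, 3.07 and 2.17 at WT 42 DPA, and 2.24, 2.49 and 1.69 in Cnr. Its exon 4 region had 2.63, 2.79 and 3.09 at WT 42 DPA and 1.57 and 1.91 in Cnr replicates 1 and 2. The other 12, among them FUL2, NR and the ALKBH genes, held none. NR had 9 peaks that overlap a neighbouring gene as well and so could not be counted as peaks of 1 gene, and 2 of the ALKBH genes had no peak in any list.

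Gene groups were formed from the gene ontology (GO) terms in the lists. Of the genes with a peak, 7.49% had a coding-exon region. For genes of transcription factors and transcription regulation it was 38 of 262 (14.5%), for ubiquitin 11 of 103 (10.7%), for chaperones 4 of 27 (14.8%) and for the cell wall 3 of 34 (8.82%). For protein kinases it was 35 of 522 (6.70%), for the ribosome 18 of 303 (5.94%), for transport 28 of 562 (4.98%) and for photosynthesis 2 of 48 (4.17%). None of these shares was tested, and a longer transcript or one with more reads can hold more peaks. Of the transcription genes, 14 had a coding-exon region in every WT 42 DPA library, and 0 of these 14 kept it in every Cnr library, 4 of them having it in none. For all genes the numbers were 367, 120 and 61. Examples are Solyc11g066460, with 2.99, 2.99 and 2.56 at WT 42 DPA and 2.60 in Cnr replicate 2 alone, and Solyc04g071770, with 2.58, 3.0 and 2.16 at WT 42 DPA and 1.62 and 2.18 in Cnr replicates 1 and 2. Solyc10g083380 went against the usual split, with 2.85 and 2.76 in Cnr replicates 1 and 3 and no peak in replicate 2. These 3 were chosen after their values were seen.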

How the data were processed

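m6A-seq was done on 9 RNA samples in 18 libraries (IP and input, 3 groups of 3 replicates), sequenced as paired ends. Per the labels and methods, reads were checked with FastQC 0.11.7, trimmed with cutadapt 1.16 and Trimmomatic 0.30, and aligned by the authors with BWA (its version is given as 0.30) to tomato SL3.0 with annotation ITAG3.2. Uniquely mapped reads were kept. Peaks were called by the authors with MACS in each IP library against its input and were labelled with PeakAnnotator, and replicates were not pooled. The deposited fold enrichment is the ratio of the IP fragments plus 1 to the background plus 1 at a summit, where the background is the local input or a floor for the library. The deposited −log10 p and −log10 q come from a Poisson model of the same numbers by the authors. The deposited positions are in bp. Enrichment at the floor cannot reflect the input.

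The IP fragments and background were recovered here from the enrichment and p, and 99.9% of the IP numbers were whole within 0.1. Gene strand was read from the lists' nearest-start and downstream-gene columns, which had the same strand for all 6225 genes in both. Regions were tested with limma 3.58.1 (R 4.3.3) on log2 enrichment, without covariates, with Benjamini-Hochberg adjustment over all regions of a comparison. The limma fit was tried on simulated data with independent noise in each region. These data held no shift shared by a whole library, so the trial does not cover such shifts. Values per library were tested by exact permutation, two-sided, in 18 planned and 12 added tests, each set adjusted on its own. Further exact permutation tests, by strand and last-intron label and of detection at matched enrichment, were added and are not adjusted. Other steps used Python 3.11.15, numpy 2.4.6, pandas 2.3.3, scipy 1.17.1 and matplotlib 3.10.9. The lists hold no read totals, so precision was judged from the replicates and the fragments at summits.

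Replicates with the same number in Cnr and WT 42 DPA deviated together (Pearson's r of 0.18, 0.44 and 0.34 across regions), although Cnr replicate 1 correlated as well with WT 42 DPA replicate 3 (0.19) and Cnr replicate 3 also with WT 42 DPA replicate 1 (0.23), and a fit with that number as a block was run too. Regions are named by these rules: up to 6 with the largest called change in each direction without overlap, up to 6 with a peak in all libraries of 1 group and none of the other, the 10 highest and 3 lowest in all 9 libraries, the genes with most lasting regions, and genes in the study's text. The lowest 3 include Solyc08g074290 (1.23 to 2.34 over the libraries) and Solyc05g010670, a heat shock family gene (1.36 to 1.96). Pentatricopeptide and leucine-rich repeat groups could not be formed from the GO terms. Members and lists were chosen with earlier results of these data known. The alternatives varied the peak filter, merging, summit, centring, thresholds, block and replicates. No genome of the SL3.0 build was at hand, so no sequence is shown.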

Additional observations from a re-analysis of the deposited data

How the results depend on the processing

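Several values per library changed sign. With equal numbers of peaks per library, WT 39 DPA minus WT 42 DPA turned to −58 coding-exon peaks and −0.77 percentage points of share, the Cnr gap to stop-codon peaks from −0.19 to 0.19, and the stage difference in log2 IP fragments to 0.12 (0.034 with peaks of 2-fold or more). The log2 background difference in Cnr turned to 0.17 with whole peaks in exons. The stage difference in the share of peaks in genes with a stop-codon or 3′ UTR peak turned to −0.57 points with a −log10 q of 5 or more and −1.36 with equal numbers, and ranged from −0.57 to 0.56 as replicates were left out. The stage difference in width ranged from −4.33 to 4.67 bp, that of lasting stop-codon regions from −0.019 to 0.098 on the log2 scale, and the Cnr difference in peak number from −354 to −161. The causes were not tested. The median log2 change of coding-exon regions in Cnr was 0.22 with peaks of 2-fold or more and ranged from −0.23 to 0.051 as replicates were left out.

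Higher at WT 39 DPA were 26 regions with no minimum fold change, 2 centred, 2 with peaks of 2-fold or more, 3 with the mean of summits and 3 to 13 as replicates were left out, and lower were 3 with no minimum fold change and 0 to 1. Higher in Cnr were 4 where every peak of a region had to be in coding exons, 20 where 1 had to be, 20 with no minimum fold change, 2 centred, 1 above the floor and 9 to 18 as replicates were left out. Lower in Cnr were 6 where 1 peak had to be in coding exons, 22 with no minimum fold change, 45 centred, 0 with peaks of 2-fold or more and 1 to 19 as replicates were left out. Except above the floor, the shares over all regions at these settings are not given. With peaks of 2-fold or more, 4 regions were in all WT 42 DPA and no WT 39 DPA library and 26 in all WT 42 DPA and no Cnr library. As replicates were left out, these ranged from 9 to 19 and from 62 to 221, and those in all WT 39 DPA and no WT 42 DPA library from 43 to 75. Leaving out a library can only keep or raise such a number. Shares over all regions are not given for these numbers either.

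With the replicate number as a block, limma called 10 regions higher and 3 lower in Cnr, and 6 higher and 0 lower at WT 39 DPA, as without it. The blocked library values allow no p under 0.25. The block changed no other call. Between the stages the correlations of same-numbered replicates were 0.23, 0.34 and 0.08. Replicates 1 and 2 at WT 39 DPA correlated best with their own number, and replicate 3 with WT 42 DPA replicate 1 (0.17). Whether the numbers stand for true pairs was not tested. Coding-exon peaks under 1.5-fold had a median of 323 IP fragments and a background of 4.77 floors, and those of 2- to 3-fold 198 fragments and 1.70 floors. The 3 libraries a group limit every p.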

Other observations

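Some gene groups were formed after the GO terms of the coding-exon genes had been seen, so their shares describe these lists only. Coding-exon regions were found in 58 of the 379 genes with a peak annotated with DNA binding (15.3%), in 11 of 31 annotated with mRNA splicing (35.5%) and in 12 of 38 annotated with metal ion transport (31.6%). Of the DNA-binding genes, 26 had a coding-exon region in every WT 42 DPA library, and 7 of these 26 kept it in every Cnr library while 5 had it in none. For the splicing genes the numbers were 9, 3 and 1, and for the metal ion transport genes 5, 3 and 0.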
